A study of Mus musculus with 8 samples.

Results

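The DNA methylation of 3 mouse imprinted genes, Peg10, Zrsr1 and Mcts2, and of their partner genes Sgce, Commd1 and H13 was examined in neural precursor cells (NPCs) after knockdown of Tet3. The 3 imprinted genes had been chosen by their oxBS values in the same libraries, as promoters at which several CpGs were called hypermethylated in Tet3 KD NPCs, so the oxBS difference at these promoters is given as a description only. Every listed CpG from 5 kb upstream of a member's first start site to the end of that gene was taken, which gave 268 of the 757812 CpGs of the series, and 250 of them had a coverage of at least 10 reads in all 8 libraries. Of the 268, 84 lay in the imprinted promoters, defined as 1 kb upstream to 0.5 kb downstream of the start site.

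In genomic imprinting a gene is expressed from the copy of only 1 parent. At maternally methylated imprinted promoters the mark is laid down in the oocyte and then kept on the maternal copy through development, so that a mixed reading of both copies gives an intermediate level. Peg10 is a gene derived from a retrotransposon and is required in the placenta, Zrsr1 is a retrogene related to the U2AF splicing factor, and Mcts2 is a retrogene of the translation factor Mcts1. Sgce, which encodes epsilon-sarcoglycan, starts head to head with Peg10, whereas Zrsr1 lies in an intron of Commd1, a regulator of copper handling and of NF-kappaB, and Mcts2 lies in an intron of H13, the signal peptide peptidase. TET3 is a dioxygenase that oxidises 5-methylcytosine (5mC) to 5-hydroxymethylcytosine (5hmC).

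The cells were NPCs obtained by neural differentiation of the ES line A2lox.cre, in which the shRNA is switched on by doxycycline. The shScr group carried a non-targeting shRNA and the shTet3 group an shRNA against Tet3, and both were given doxycycline at 2 µg/ml for 5 days. Each group held 2 replicates, and the DNA of each was divided between a bisulphite library (BS, which reads 5mC and 5hmC together) and an oxidative bisulphite library (oxBS, which reads 5mC alone). The line derives from male E14 cells of strain 129P2/OlaHsd, and so the parental copies of a locus were not told apart in these data. The shRNA cells were grown as ES clones, and no source used here says how many clones gave these samples. No source used here states that the replicates were separate cultures, so p-values measure only the spread between these samples. RNA was not analysed here, and so neither the loss of Tet3 nor neural markers could be checked. The BS libraries did not choose the members, but they were made from the DNA that also gave the oxBS libraries, and they are another reading of the same 4 DNA samples rather than new replicates.

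The libraries held 42516767 to 61865967 methylation calls at a median coverage of 43 to 54 reads per CpG. The shScr replicates differed over the whole series. Over 659124 CpGs tested in BS the mean level was 26.5% in shScr replicate 1 and 31.3% in shScr replicate 2, against 22.0% and 22.3% in the shTet3 replicates, and only 16.8% of CpGs were higher in shScr replicate 1 than in replicate 2. Results that rest on shScr replicate 2 are therefore given with and without it. Pairs of values are written in the order of replicate 1 and replicate 2, and the shScr replicates are also called the controls.

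The 3 loci are on different chromosomes (mm9 coordinates). Peg10 (ENSMUSG00000092035) occupies chr6:4697306-4710514 on the plus strand, and Sgce (ENSMUSG00000004631) chr6:4624350-4697204 on the minus strand. Zrsr1 (ENSMUSG00000044068) is at chr11:22873215-22876498 on the plus strand, inside Commd1 (ENSMUSG00000051355) at chr11:22734744-22882382 on the minus strand. Mcts2 (ENSMUSG00000042814) is at chr2:152512884-152513676 and H13 (ENSMUSG00000019188) at chr2:152495197-152534406, both on the plus strand.

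The CpGs that the comparisons turn on lie in 4 stretches of the genome, shown on the plus strand, 5′ to 3′. The Mcts2 stretch (chr2:152512590-152512883) ends at the base before the start site, with the 23 CpGs called higher in the shTet3 BS libraries in capitals. The outer stretch of Zrsr1 (chr11:22871902-22872128) is in an intron of Commd1, with its 10 CpGs called higher in capitals, and the inner stretch (chr11:22872684-22872905) lies in the Zrsr1 promoter, with the 13 CpGs that were measured in capitals, none of them called in BS. The 101 bp between the Sgce and Peg10 start sites (chr6:4697205-4697305) are shown with all 13 CpGs in capitals. The CpGs measured at this shared promoter begin downstream of it, in the first exon of Peg10.
Mcts2: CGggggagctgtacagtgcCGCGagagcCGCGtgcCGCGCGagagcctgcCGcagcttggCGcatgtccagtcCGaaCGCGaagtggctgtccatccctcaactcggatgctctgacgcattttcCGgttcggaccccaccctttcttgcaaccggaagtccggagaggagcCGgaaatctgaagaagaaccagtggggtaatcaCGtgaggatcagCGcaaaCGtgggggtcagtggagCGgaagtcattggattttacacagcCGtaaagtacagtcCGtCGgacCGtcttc
Zrsr1 outer: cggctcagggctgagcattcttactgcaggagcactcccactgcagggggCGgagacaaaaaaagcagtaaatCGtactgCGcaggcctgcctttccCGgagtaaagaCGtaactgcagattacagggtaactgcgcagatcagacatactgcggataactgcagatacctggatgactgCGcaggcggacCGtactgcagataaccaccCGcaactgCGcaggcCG
Zrsr1 inner: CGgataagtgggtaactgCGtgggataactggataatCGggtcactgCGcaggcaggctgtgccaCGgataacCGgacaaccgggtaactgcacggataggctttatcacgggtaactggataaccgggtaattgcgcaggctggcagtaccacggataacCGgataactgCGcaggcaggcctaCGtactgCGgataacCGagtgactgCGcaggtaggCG
Peg10 and Sgce: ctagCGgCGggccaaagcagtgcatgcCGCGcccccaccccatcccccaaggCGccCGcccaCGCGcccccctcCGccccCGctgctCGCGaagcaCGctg

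A search of the 3 promoters for TGCCGC, the core recognised by the imprint-keeping protein ZFP57, on both strands found 3 matches at Mcts2, 2 at Zrsr1 and 1 at Peg10. Of 46022 promoter windows of the same length, 39.2% held at least 1 match and 5.45% held as many as Mcts2. The CpGs of all 3 Mcts2 matches were measured, at −275, −259 and −244 bp from the start site, and all 3 were among the 24 of 26 Mcts2 CpGs called higher in BS. The matched CpGs of Peg10 and Zrsr1 were not analysed here.

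The comparison asked whether 5mC at the imprinted promoters differed between Tet3 KD and control NPCs, and whether the partner genes shared that difference. The partner genes are called host genes below, though Sgce lies beside Peg10 and does not contain it. In BS, 29 of 82 CpGs of the imprinted promoters were called higher in shTet3, which is 35.4%, and 0 were called lower. Over all CpGs tested in BS, 0.0621% were called higher and 13.8% lower, by logistic regression on the pooled calls with a q-value under 0.01 and a difference above 10 percentage points. The calls were uneven, with 24 of 26 at Mcts2, 5 of 13 at Peg10 and 0 of 43 at Zrsr1. At an unadjusted p below 0.05, 40 of the 82 CpGs were higher and 0 lower. An F test corrected for the spread between replicates called 0 CpGs in any of these promoters, also at an unadjusted p below 0.05. With 2 libraries per group this test could hardly reach a q-value under 0.01, so its 0 calls at that threshold decide nothing. In oxBS, which chose the members, 30 of 83 CpGs were called higher, namely 13 of 13 at Peg10, 7 of 44 at Zrsr1 and 10 of 26 at Mcts2, where the background was 0.0814% higher and 13.9% lower.

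The calls at the imprinted promoters depended on single libraries. Without shScr replicate 2, 0 of the 82 CpGs were called higher in BS and 2 were called lower, both at Peg10, and in oxBS 0 were called higher and 1 lower, at Mcts2. Without shTet3 replicate 1, 8 were called higher in BS, all at Mcts2, and 12 in oxBS. Without shScr replicate 1, 37 were called higher in BS and 64 in oxBS.

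At the Mcts2 promoter the BS level, the mean over its 26 CpGs, was 26.7% in shScr replicate 1, 6.35% in shScr replicate 2, 28.1% in shTet3 replicate 1 and 25.4% in shTet3 replicate 2. Replicate 2 of shScr stood alone, and the other 3 libraries lay within a few percentage points of each other. The mean of shTet3 was 10.2 percentage points higher, with a pooled SD of 10.3, and it did not exceed the spread (exact permutation test, two-sided, n = 2 per group, p = 0.667, where 0.333 is the smallest p possible). Against shScr replicate 1 alone the difference was 0.048 percentage points. The oxBS levels were 28.8% and 7.93% in the controls and 30.8% and 22.1% in shTet3.

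At the Peg10 promoter the BS level over 13 CpGs was 47.2% in shScr replicate 1 and 8.94% in replicate 2, and 27.4% and 30.9% in the shTet3 replicates. Both shTet3 libraries thus lay between the controls. The difference was 1.07 percentage points with a pooled SD of 19.2 (exact permutation test, two-sided, n = 2 per group, p = 1), and against shScr replicate 1 alone shTet3 fell by 18.0 percentage points. The 5 CpGs called higher in BS were called on pooled reads, to which shScr replicate 2 gave more than replicate 1 (258 to 281 against 115 to 121 reads per CpG). When the unweighted means of the replicates were required to differ by more than 10 percentage points, 0 CpGs of Peg10 and 9 of Mcts2 were called. In oxBS the Peg10 levels were 29.9% and 9.85% in the controls and 43.6% and 31.2% in shTet3, with both shTet3 libraries above both controls.

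At the Zrsr1 promoter the BS level over 43 CpGs was 24.3% and 10.9% in the controls and 17.7% and 19.8% in shTet3, so that shTet3 again lay between the controls. The difference was 1.12 percentage points with a pooled SD of 6.74 (exact permutation test, two-sided, n = 2 per group, p = 1). The oxBS levels over 44 CpGs were 26.4% and 7.20% in the controls and 24.4% and 22.0% in shTet3.

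**Figure D1:**
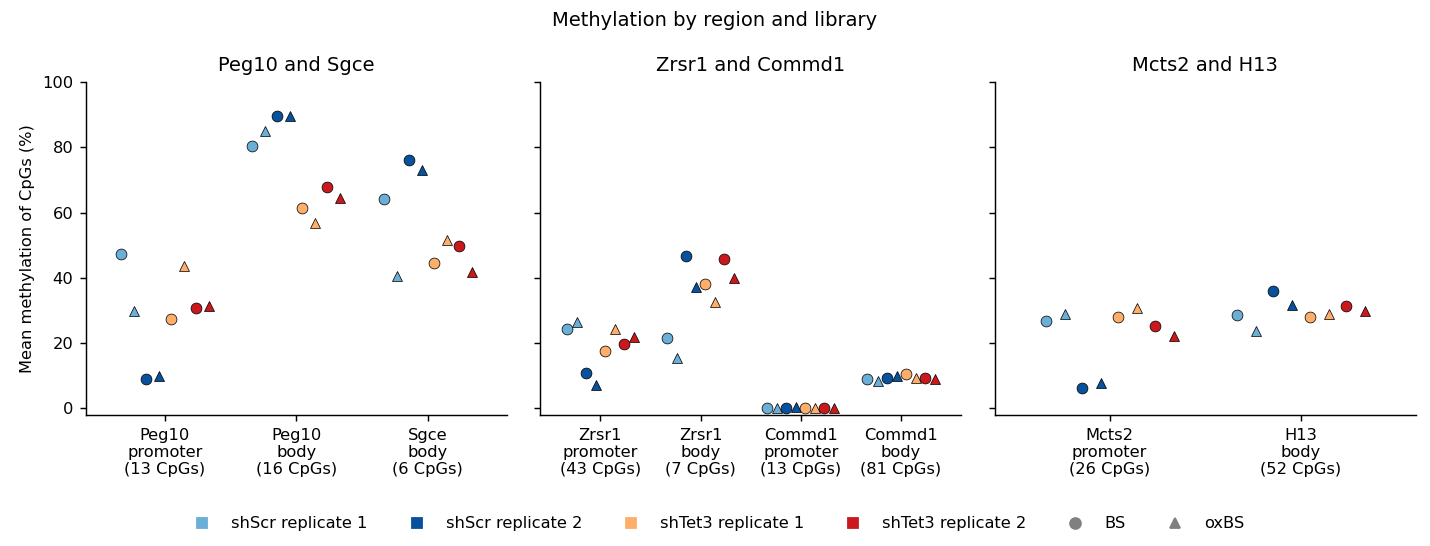
Mean methylation in percent of the promoters and bodies of the imprinted genes and their hosts in each library. Colours give the replicate, circles BS and triangles oxBS, and the number of CpGs is that tested in BS. At all 3 imprinted promoters shScr replicate 2 is lowest, at 8.94%, 10.9% and 6.35% in BS, whereas in the Peg10 body both shTet3 replicates lie below both controls.

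The gap between the controls ran opposite to that of the series. In BS, shScr replicate 1 was higher than replicate 2 at 13 of 13 CpGs of Peg10, 39 of 43 of Zrsr1 and 26 of 26 of Mcts2. The gap was 38.2, 13.3 and 20.4 percentage points. The gap was ranked among 12434 protein-coding promoters with at least 3 CpGs, whose median gap was −0.12. In this direction, 4 had a larger gap than Peg10, 157 than Zrsr1 and 69 than Mcts2. Gaps in the other direction, with shScr replicate 1 below replicate 2, were not counted in these ranks. Some of them were larger in size than that of Peg10, such as −46.4 at Bgn and −43.15 at Art1. By the difference between shTet3 and shScr, 2 promoters were above Mcts2, 199 above Zrsr1 and 214 above Peg10. These ranks are a description only, since the 3 promoters were chosen by higher oxBS values in shTet3 in the same DNA. Across CpGs the gap between the shScr replicates in BS correlated with that in oxBS (r = 0.517). The 2 above Mcts2, Tacc2 and Pttg1, are named after their values were seen. At both of them each shTet3 BS library was above both shScr BS libraries, but in oxBS the groups overlapped. The oxBS level of Tacc2 was 38.5% and 19.995% in the controls and 32.2% and 39.8% in shTet3. That of Pttg1 was 5.71% and 7.14% in the controls and 24.97% and 2.597% in shTet3.

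**Figure D2:**
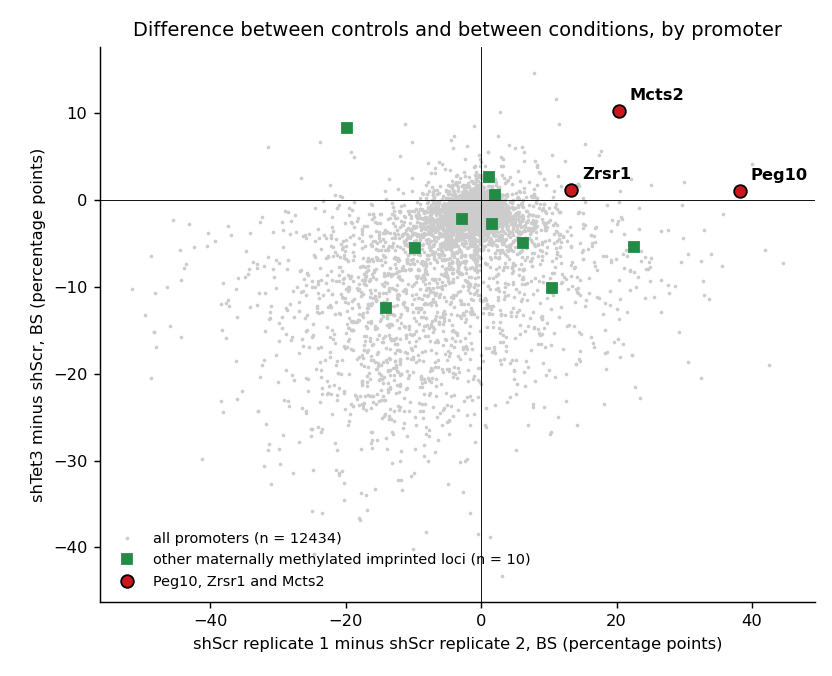
Each point is a protein-coding promoter with at least 3 CpGs covered (n = 12434), placed by the BS level of shScr replicate 1 minus replicate 2 on the x axis and by the mean of shTet3 minus the mean of shScr on the y axis, in percentage points. Red marks Peg10, Zrsr1 and Mcts2, at gaps of 38.2, 13.3 and 20.4, and green the 10 promoters of other imprinted loci; Sgce has the same CpGs as Peg10.

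Single CpGs gave levels like those of their promoters. The Peg10 CpG read most often (chr6:4697418, 112 bp downstream of the start site, where −1 is the base before it) was at 47.9% in shScr replicate 1 (95% Wilson interval 41 to 54.9), 6.91% in shScr replicate 2 (4.88 to 9.7), 29.2% in shTet3 replicate 1 (23.3 to 36) and 28.8% in shTet3 replicate 2 (23 to 35.3) in BS. The intervals cover counting error only, and those of the controls did not overlap. The best covered Mcts2 CpG (chr2:152512669, −215 bp) was at 21.5% and 4.24% in the controls and at 23.4% and 18.3% in shTet3. The best covered Zrsr1 CpG (chr11:22872924, −291 bp) was at 19.2% and 12.4% in the controls and at 18.8% and 22.9% in shTet3. At the Mcts2 start site itself (chr2:152512884, the first base of the transcript) the level was highest among the Mcts2 CpGs, at 38.8% and 10.1% in the controls and 42.0% and 43.3% in shTet3.

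The 84 CpGs of the imprinted promoters lay on few restriction fragments, 2 at Peg10, 7 at Zrsr1 and 4 at Mcts2, and coverage stepped along them. CpGs within a step shared most of their reads and cannot count as separate measurements. With a step set where the summed coverage changed by over 25%, the 24 calls of Mcts2 fell into 5 stretches and the 5 calls of Peg10 into 1 of 3 stretches.

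Within the Peg10 promoter the stretches differed in BS more in some libraries than in others. From 49 to 92 bp (5 CpGs) the BS level was 49.3% and 6.68% in the controls and 36.2% and 30.9% in shTet3. From 147 to 183 bp (6 CpGs) it was 45.4% and 11.4% in the controls and 20.7% and 31.8% in shTet3. The shTet3 replicates thus changed their order along a single fragment of 134 bp and its neighbour, and the 5 BS calls all lay in the stretch nearer the start site. In oxBS, shScr replicate 1 was at 20.7% in the nearer stretch and at 38.9% in the farther one.

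Within the Mcts2 promoter both shTet3 libraries were higher near the start site. In BS they were at 29.7% and 21.7% from −294 to −255 bp (8 CpGs), and at 38.4% and 40.0% in the last stretch, from −29 bp to the start site (5 CpGs). The shScr replicates were at 28.4% and 5.29% in the former and at 35.1% and 8.93% in the latter. At 8 of the 26 CpGs both shTet3 BS libraries were above both controls, and all 8 were among the CpGs called higher, where this held for 1.96% of all CpGs tested in BS.

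Within the Zrsr1 promoter the profile was uneven. From −531 to −458 bp (6 CpGs) the BS level reached 48.3% in shScr replicate 1, against 17.5% in replicate 2 and 27.6% and 30.4% in shTet3. From −370 to −311 bp (7 CpGs) it was 26.1% and 16.4% in the controls and 22.1% and 27.7% in shTet3. The 7 CpGs called higher in oxBS all lay in this stretch, where the oxBS level was 24.0% and 8.62% in the controls and 33.9% and 30.0% in shTet3. At 6 of the 43 CpGs both shTet3 BS libraries were above both controls, beside the same 1.96% of all CpGs.

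**Figure D3:**
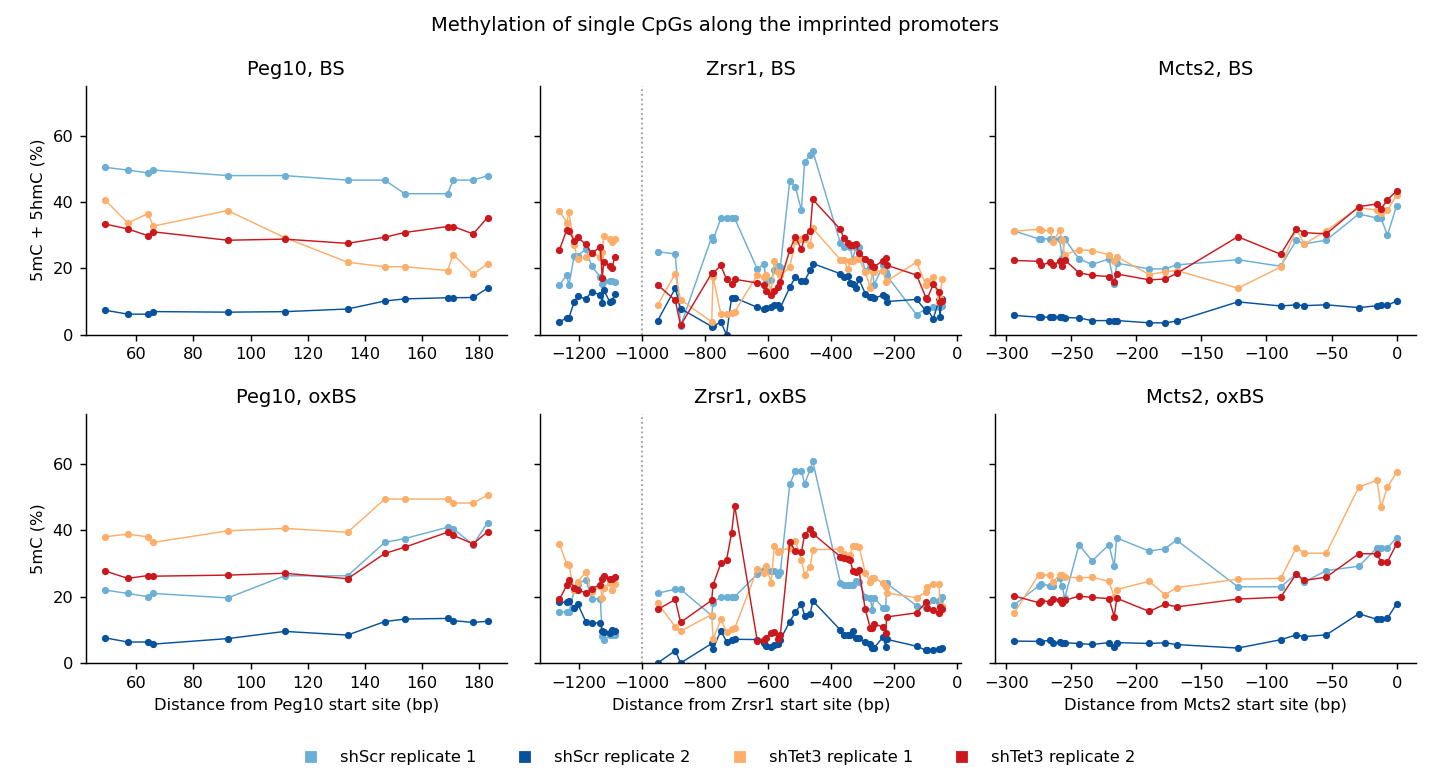
Methylation in percent of single CpGs against the distance from the start site in bp, for BS (upper row) and oxBS (lower row), with a line per replicate and CpGs more than 100 bp apart not joined. The dotted line marks the edge of the Zrsr1 promoter, beyond which the outer stretch in the Commd1 intron is drawn; shScr replicate 2 runs below the other replicates along Peg10 and Mcts2, between 3.54% and 14.0% in BS.

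Outside the imprinted promoters most CpGs called higher were next to Zrsr1. Of 152 CpGs of the host genes outside the imprinted promoters, 11 were called higher in BS and 6 lower. These were 7.24% and 3.95%, beside 0.0621% higher and 13.8% lower over all CpGs tested in BS. Of the 11, 10 lay in the outer stretch of Zrsr1, 1.3 to 1.1 kb upstream of its start site and thus in a Commd1 intron just outside the promoter window. Over its 14 CpGs the BS level was 18.6% and 10.2% in the controls and 30.1% and 25.2% in shTet3, and here both shTet3 libraries were above both controls. The oxBS level over 13 CpGs was 15.1% and 13.4% in the controls and 25.1% and 23.6% in shTet3, again with both shTet3 libraries above both controls. The largest called BS difference was at chr11:22871982, where the level was 14.9% and 5.13% in the controls and 36.8% and 31.2% in shTet3. The pooled difference was 24.1 percentage points (logistic regression on pooled calls, q = 5.76e-06). The F test corrected for the spread between replicates gave 0 of 81 Commd1 body CpGs an unadjusted p below 0.05. With promoters widened to 2 kb upstream and 1 kb downstream these 10 CpGs counted for Zrsr1, at 10 of 63 tested. In BS the higher calls of the Commd1 body were all lost without shScr replicate 2, and some remained without shTet3 replicate 1. In oxBS, given as a description, some remained without either of them.

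Another annotated Commd1 transcript has a promoter window that overlaps the Zrsr1 promoter, and the CpGs there were counted for Zrsr1. The promoter at the protein-coding start sites of Commd1 was unmethylated. Over 13 CpGs (chr11:22882136-22882291, in its first exon) the BS level was 0% and 0.265% in the controls and 0.128% and 0% in shTet3, and 0 CpGs were called, none of them with an unadjusted p below 0.05. At its best covered CpG (chr11:22882219) the highest of the 8 libraries was at 1.52%. The Commd1 body was at 8.89% and 9.19% in the controls and 10.6% and 9.44% in shTet3 (difference 0.993 percentage points, exact permutation test, two-sided, n = 2 per group, p = 0.333). Most of its CpGs belonged to other genes, since 64 of 87 lay in a stretch (chr11:22759294-22759902) that spans the promoters of B3gnt2, Gm12057 and RP23-242C19.5 within Commd1 and was at 0% to 0.189% in BS. Without the CpGs in promoters of other genes, an alternative chosen after seeing the data, the difference of the Commd1 body was 10.3 percentage points. That setting left the 14 CpGs of the outer Zrsr1 stretch and 3 CpGs at chr11:22736848-22736887. Their differences were 13.2 and −3.64 percentage points, so the value mostly repeats the outer stretch and does not describe the Commd1 body as a whole.

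The Zrsr1 promoter minus the Commd1 body was 15.4 and 1.75 percentage points in the controls and 7.06 and 10.3 in shTet3, and the difference between groups was 0.129 (exact permutation test, two-sided, n = 2 per group, p = 1). In the Zrsr1 coding exon, 719 to 1037 bp downstream (7 CpGs), the BS level was 21.5% and 46.8% in the controls and 38.2% and 45.8% in shTet3. The shScr replicates there stood in the reverse order to that at the promoter, and 0 CpGs were called in BS.

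The H13 promoter held 0 listed CpGs and was not analysed here. The H13 body outside Mcts2 was at 28.7% and 35.9% in the controls and 28.1% and 31.4% in shTet3 over 52 CpGs. The difference of −2.58 percentage points did not exceed the spread (exact permutation test, two-sided, n = 2 per group, p = 0.667). Of these CpGs 5 were called lower and 1 higher in BS, beside 13.8% lower and 0.0621% higher over all CpGs tested. In the F test 0 of the 52 had an unadjusted p below 0.05. The largest fall was at chr2:152506484, in an intron 6.4 kb upstream of Mcts2, from 92.0% and 89.2% in shScr to 61.2% and 66.7% in shTet3, a pooled difference of −26.6 percentage points (logistic regression, q = 0.00117). The CpG that rose (chr2:152533476) was in the H13 3′ UTR, at 0% and 1.16% in the controls and 10% and 12.1% in shTet3 (logistic regression, q = 0.00427). The 33 CpGs of that part of the UTR were otherwise low, at 9.29% and 10.1% in the controls and 11.5% and 15.1% in shTet3. The Mcts2 promoter minus the H13 body was −2.01 and −29.6 percentage points in the controls and 0.0404 and −6.05 in shTet3, a difference between groups of 12.8 (exact permutation test, two-sided, n = 2 per group, p = 0.667).

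The body of Peg10 moved down, in the direction of most calls in the series. In the Peg10 coding exon, 8032 to 8856 bp downstream of the start site (16 CpGs, chr6:4705338-4706162), the BS level was 80.3% and 89.5% in the controls and 61.3% and 67.8% in shTet3. Both shTet3 libraries were below both controls. The difference was −20.3 percentage points with a pooled SD of 5.64, and the exact permutation test (two-sided, n = 2 per group) gave p = 0.333, the smallest p possible. In BS, 11 of the 16 CpGs were called lower and 0 higher, and the number was 2 without shScr replicate 2 and 7 without shTet3 replicate 1. Over all CpGs tested in BS, 13.8% were called lower. The CpG of the Peg10 body with the largest fall (chr6:4705958) went from 70.4% and 76.1% to 45% and 40.3% (logistic regression, q = 3.34e-06). The F test called 0 of the 16, with 2 at an unadjusted p below 0.05.

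Sgce was covered at few CpGs. All 13 CpGs of the Peg10 promoter also lay within the Sgce promoter window, so Sgce had no promoter CpG of its own. In the Sgce body 6 CpGs were tested, with BS levels of 64.1% and 75.9% in the controls and 44.4% and 49.8% in shTet3. Both shTet3 libraries were again below both controls (difference −22.9 percentage points, exact permutation test, two-sided, n = 2 per group, p = 0.333). In oxBS the groups overlapped over 5 CpGs, with 40.7% and 72.9% in the controls and 51.6% and 41.7% in shTet3, a difference of −10.1 percentage points, and 0 CpGs were called. The 1 CpG called lower in BS (chr6:4669463, in a coding exon) was at 78.6% and 100% in the controls and 27.3% and 60.9% in shTet3 (logistic regression, q = 0.000647). In the F test 0 of the 6 CpGs tested in BS had an unadjusted p below 0.05. The Peg10 promoter minus the Sgce body was −16.9 and −67.0 percentage points in the controls and −17.0 and −18.9 in shTet3, so that only shScr replicate 2 stood apart (difference between groups 24.0, exact permutation test, two-sided, n = 2 per group, p = 1).

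BS minus oxBS, which estimates 5hmC, was not steady between DNA samples at Peg10. Over all CpGs it was 0.449, 0.308, 0.279 and 0.332 percentage points in shScr replicates 1 and 2 and shTet3 replicates 1 and 2. At the Peg10 promoter it was 17.2, −0.902, −16.2 and −0.343 percentage points, a mean of −0.0531 ± 13.7 (SD, n = 4). The 2 samples with the largest values had opposite signs, and as 5hmC cannot be negative, no 5hmC level or difference was detectable there at this precision. The range was −6.98 to 3.74 at the Zrsr1 promoter and −2.70 to 3.32 at the Mcts2 promoter. In the Zrsr1 body (7 CpGs) BS minus oxBS was above 0 in all 4 DNA samples, at 5.99, 9.72, 5.71 and 5.84 percentage points, a mean of 6.82 ± 1.94 (SD, n = 4). Coverage there went down to 15 reads, and the value was not tested. The paper detected hydroxymethylated CpGs in these NPCs only at a high false discovery rate, so no 5hmC level is taken from this value.

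**Figure D4:**
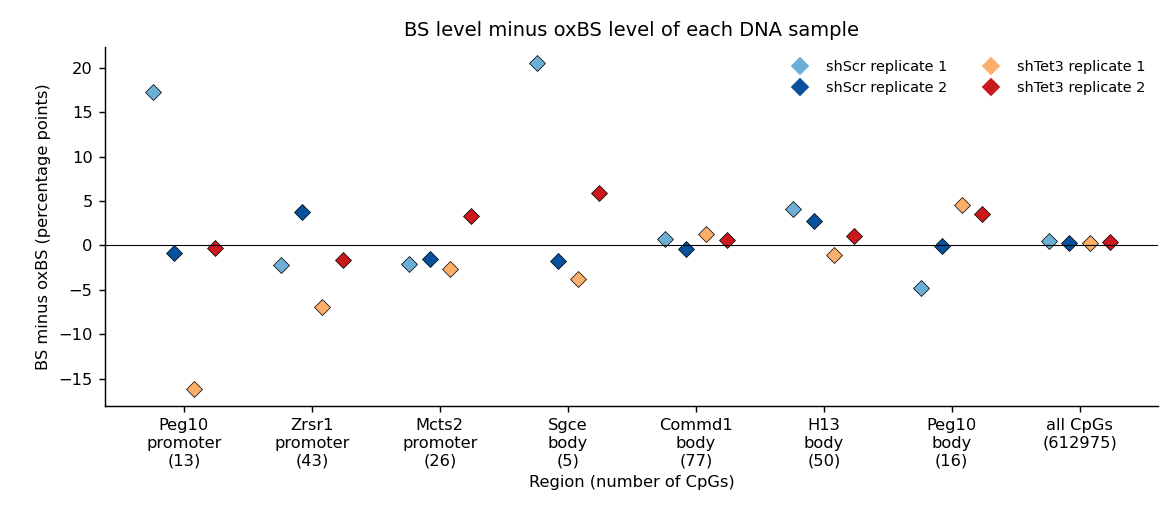
BS level minus oxBS level in percentage points for each of the 4 DNA samples, by region, with the number of CpGs covered in all 8 libraries. The Peg10 promoter spans 17.2 in shScr replicate 1 to −16.2 in shTet3 replicate 1, against 0.279 to 0.449 over all CpGs.

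Promoters of other imprinted loci were set beside the 3. A list of 18 genes at or beside maternally methylated regions, chosen with earlier results of these data known, had 10 promoters with at least 3 CpGs covered. Their BS difference was above 0 at 3 of 10, with a median of −3.87 percentage points (range −12.4 to 8.31), where the median of all promoters was −0.125. Of their 362 CpGs tested 1 was called higher, at Inpp5f, and 17 lower, beside 0.0621% higher and 13.8% lower over all CpGs tested in BS. Snrpn, a classic maternally methylated imprint, was at 31.2% and 24.9% in the controls and 26.2% and 20.01% in shTet3, and Plagl1, a zinc finger gene, was at 41.5% and 61.3% in the controls and 62.2% and 57.2% in shTet3.

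The control gap of these 10 promoters had a median of 1.37 percentage points (range −19.8 to 22.5). Taken per library, the mean of the 3 imprinted promoters minus the mean of the other 10 was −3.40 and −27.6 percentage points in the controls and −8.88 and −7.50 in shTet3. The difference between groups was 7.32 (exact permutation test, two-sided, n = 2 per group, p = 1), and −4.79 without shScr replicate 2. As the 3 had been chosen by higher oxBS values in shTet3 in the same DNA, their contrast with the other 10 is a description only. The mean of the other 10 was 36.1% and 36.4% in the shScr replicates, with gaps in both directions. Replicate 2 was the lower at 6 of the 10, by up to 22.5 percentage points at Nnat, which was at 87.6% and 65.1% in the controls and 64.0% and 77.8% in shTet3.

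**Figure D5:**
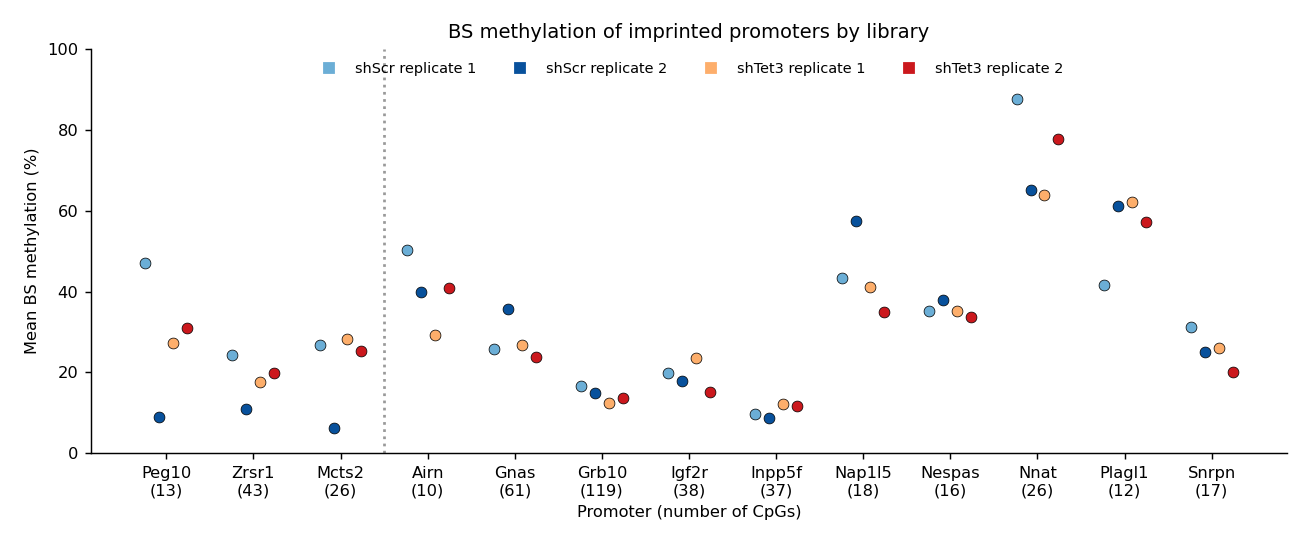
Mean BS methylation in percent of Peg10, Zrsr1 and Mcts2 (left of the dotted line) and of 10 promoters of other imprinted loci, with a point per library and the number of CpGs under each name. The dark blue points, shScr replicate 2, are lowest at all 3 promoters on the left. On the right they are lowest at Inpp5f, highest at Gnas, Nap1l5 and Nespas, and between the other libraries elsewhere. The 3 on the left were chosen by higher oxBS values in shTet3 in the same DNA.

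At genes beside the 3 loci the counts were near the background of 0.0621% higher and 13.8% lower, or below it. Around Peg10 and Sgce 8 of 14 neighbours had a promoter with at least 3 CpGs covered, the minimum used here, with 0 of 145 CpGs called higher and 5 lower. Around Zrsr1 and Commd1 6 of 6 were measured, with 0 of 146 CpGs called in either direction and levels near 0, such as 0.31% and 0.19% in the controls and 0% and 0.07% in shTet3 over the CpGs of that stretch that belong to the promoter of B3gnt2, a glycosyltransferase. Around Mcts2 and H13 8 of 11 in the annotation were measured, with 0 of 130 called higher and 18 lower, 12 of them at Foxs1, a forkhead factor, which was at 63.3% and 77.8% in the controls and 52.9% and 46.0% in shTet3. The X-linked gene Zrsr2, from which Zrsr1 derives, was at 0% and 0.11% in the controls and at 0% in both shTet3 BS libraries. Mcts1, the X-linked source of Mcts2, was not analysed here. Of 7 factors that keep imprints, 4 had a measured promoter (Dnmt1, Setdb1, Uhrf1 and Zfp57), all below 5% in BS and with 0 of 120 CpGs called. Zfp445, a zinc finger gene of the same list, had 2 CpGs, at 87.0% and 100% in the controls and 62.4% and 89.2% in shTet3, and 1 of them was called lower.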

How the data were processed

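Reduced representation bisulphite libraries of MspI-digested DNA from NPCs (2 shScr and 2 shTet3 replicates, each as BS and oxBS, 8 libraries) were analysed. Per the labels and the study's methods, the authors trimmed reads with Trim Galore, aligned them to mm9 with Bismark and wrote methylKit files. The deposited values are the count of calls per CpG (coverage) and the percent of methylated and unmethylated calls, with no further normalization. The same 757812 CpGs are listed in every file, each with a coverage of at least 5, and all fall on CG in the mm9 genome.

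Methylated calls were recovered as percent times coverage, which gave whole numbers within 1e-06. A CpG was tested when its coverage was at least 10 in the 4 libraries compared. shTet3 was compared with shScr by logistic regression on the calls per CpG (likelihood ratio test, no covariate), after the use of methylKit in the study. A CpG was called at a Benjamini-Hochberg q under 0.01 over all CpGs tested and a pooled difference above 10 percentage points. Levels are unweighted means over CpGs, compared by exact permutation tests, which cannot go below p = 0.333 with 2 against 2. The script was tested on simulated data. Genes are from GENCODE vM1. Python 3.11.15, numpy 2.4.6, pandas 2.3.3 and scipy 1.17.1 were used.

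Members, gene lists and tests were chosen with earlier results of these data known. The CpGs named singly are those with the highest coverage, the lowest or highest control level in BS, or the largest called BS difference in each direction of a region. Of 18 imprinted genes listed, 15 were in the annotation.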

Additional observations from a re-analysis of the deposited data

How the results depend on the processing

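The CpGs of imprinted promoters called higher numbered 29 in BS and 30 in oxBS, and the host CpGs called lower 6 and 5. The overdispersion-corrected F test called 0 in all 4 cases, but with 2 libraries per group it could hardly call any CpG at this q-value. A fit with the replicate number as a block gave 17 in BS, all at Mcts2, and 27 in oxBS. No source used here says whether the replicate numbers pair shScr with shTet3. The replicate differences of shScr and shTet3 did not correlate (r = −0.0282 in BS and −0.0361 in oxBS across CpGs), which does not settle the pairing. Requiring both shTet3 libraries to lie beyond both controls gave 8 in BS and 17 in oxBS, and requiring unweighted means to differ by over 10 percentage points, chosen after seeing the data, gave 9 in BS. Leaving out each replicate in turn gave 0 to 37 in BS and 0 to 64 in oxBS for promoter CpGs called higher, 0 to 2 for promoter CpGs called lower in BS, and 2 to 7 in BS and 0 to 6 in oxBS for host CpGs called lower, with the lowest of each count of higher calls reached without shScr replicate 2.

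Leaving out each replicate moved the BS difference of the promoter over −18.0 to 20.2 percentage points at Peg10, −5.54 to 7.79 at Zrsr1 and 0.048 to 20.4 at Mcts2, that of the host body over −28.8 to −17.0 at Sgce, 0.405 to 1.58 at Commd1 and −6.19 to 1.04 at H13, and that of promoter minus host body over −1.08 to 49.0 at Peg10, −6.68 to 6.94 at Zrsr1 and −0.989 to 26.6 at Mcts2. The Zrsr1 promoter minus the Commd1 body turned to −0.395 with a coverage minimum of 20 and to −9.15 without promoters of other genes in the host body. The latter setting left mainly the outer Zrsr1 stretch in the Commd1 body. The H13 body turned to 1.42 when weighted by reads and to 1.74 in oxBS, and the Commd1 body to −1.57 with wider promoters, which move the outer Zrsr1 stretch out of it. The other alternatives kept the direction and the side of the threshold of these results, or stayed within 1.5 times the count. A coverage minimum of 20 left no value for the Sgce body. The cause of the low level of shScr replicate 2 was not tested.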
